A study of Mus musculus with 11 samples.

Results

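Zzef1 knockout islets were compared with control islets in the absence of drug, after culture with DMSO alone. The comparison used 5 of the 11 libraries of the series, 2 labelled knockout and 3 control, and covered 15093 genes whose counts were high enough to test. Libraries were assigned to it by genotype and treatment in the sample titles. The labelled knockout islets came from mice said to lack Zzef1 in beta cells only, under the line name βZKO_Mip, and the control islets came from littermates. The labels do not spell out "Mip", the Cre line or the deleted exons. All mice were 16 weeks old and had been fed a high-fat diet for 4 weeks, so both groups carry that diet. Islets were exposed for 24 h to DMSO, given as 10 µM, which is the solvent of the other 6 libraries of the series (3 control and 3 labelled knockout), where azoramide was added at 10 µM. Each library held RNA of pooled islets from at least 3 mice of 1 genotype. The labels do not say whether libraries share mice, so p-values measure the spread between these libraries, part of which may be technical.

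ZZEF1 is a large nuclear protein with ZZ-type zinc fingers and an EF-hand domain. Its zinc fingers are known to bind the tail of histone H3, and it has been described as a partner of the Kruppel-like factors KLF6 and KLF9. Pancreatic islets are small endocrine organs in which insulin-secreting beta cells are the main cell type in the mouse, beside alpha, delta, endothelial and immune cells. The beta cell is known for its very high output of secreted protein, its zinc-rich insulin granules, its dependence on oxidative metabolism, and a cell-autonomous clock that paces insulin release.

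The 5 libraries were of similar depth, with 16832800 to 19501813 counts, 17772 to 17972 genes detected and 5.17% to 5.5% of counts on the mitochondrial genome. The groups of libraries did not separate from each other on the first principal component, which held 39.4% of the variance and set control library 2 (43.0) apart from the other 4 (-20.6 to -2.44). The median absolute log2 difference per gene was 0.113 between the 2 labelled knockout libraries, 0.139 to 0.205 between control libraries, and 0.123 to 0.181 between a labelled knockout and a control library. The spread between control libraries was therefore as wide as the distance between genotypes. Control library 2 also had the highest acinar and NF-kB levels of the 5, and control library 1 the highest hypoxia level, and results touching those genes are given with and without these libraries. Markers of the labelled tissue were present throughout, with insulin, amylin and glucagon transcripts among the most abundant in every library.

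Zzef1 itself was read in all 5 libraries. It stood at 79.4 and 83.5 CPM (reads scaled to a common library size) in the 2 labelled knockout libraries and at 85.4, 110 and 96.5 CPM in control libraries 1 to 3. The labelled knockout libraries were the lowest, but the gap to control library 1 was small beside the range of the controls. The means were 81.5 ± 2.93 CPM (SD, n = 2) and 97.2 ± 12.2 CPM (SD, n = 3), a log2 difference of -0.26 (SE 0.09, 95% interval -0.44 to -0.07). The difference was -0.16 without control library 2 and -0.34 without control library 1. It did not pass the edgeR quasi-likelihood test after Benjamini-Hochberg adjustment over all genes (adjusted p = 0.999). With azoramide the labelled knockout libraries were the higher ones (0.13), and the interaction between genotype and treatment had an unadjusted p of 0.00435 (adjusted p = 0.999). Zzef1 lies at chr11:72796226-72927120 on the plus strand (GRCm38, the assembly called mm10). Counts are summed over the whole gene, so they do not show which exons were read, and the deletion is labelled as one of beta cells within islets of several cell types. In whole islets fewer cells of a type and less RNA per cell cannot be told apart, here and in all results that follow. Because Zzef1 counts were not sharply reduced, each direction of the genotype comparison rests on the label, and the libraries are called labelled knockout.

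The neighbours of Zzef1 on chromosome 11 were examined as the genes most exposed to a change in the targeted region. Of 55 annotated genes within 1 Mb, 22 were tested, and 11 were higher and 11 lower, with a median log2 difference of 0.00. Atp2a3, which encodes the ER calcium pump SERCA3, stood at 497 and 480 CPM in labelled knockout and at 434, 385 and 505 CPM in control libraries (log2 difference 0.15, SE 0.09), so the groups overlapped. Ctns, the lysosomal cystine transporter, was at 42.7 and 44.2 CPM against 37.8, 35.3 and 37.2 CPM (0.24, SE 0.12). Groups did not overlap for 2 higher and 2 lower genes, beside 9.87% of all genes higher and 9.57% lower. The 2 genes at an unadjusted p under 0.05 (9.09% of those tested, beside 3.52% of all genes) overlap each other on the same strand. They were Gm43951 (2.18) and 4933427D14Rik (-1.45), whose reads cannot be told apart with certainty, and with azoramide they differed by 0.00 and 0.01.

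Among all 15093 genes, none passed an adjusted p of 0.05 (0%) in the edgeR quasi-likelihood test with Benjamini-Hochberg adjustment. At an unadjusted p under 0.05 there were 531 genes (3.52%), 239 higher (1.58%) and 292 lower (1.93%) in labelled knockout. DESeq2, run as an alternative, called 3 genes, namely Mt2 and the predicted genes Gm15446 and Gm14440. Both labelled knockout libraries lay outside the range of the 3 control libraries for 2934 genes (19.4%), of which 1489 were higher (9.87%) and 1445 lower (9.57%). Differences were small as well as uncalled. Among 12337 genes with a mean log2 CPM of at least 1, the median absolute log2 difference was 0.08, the 95th percentile was 0.35, and 265 genes (2.15%) exceeded 0.5. The median SE in that set was 0.11. Since no gene passed, the named genes and groups that follow are described by their values and not as changes.

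**Figure D1:**
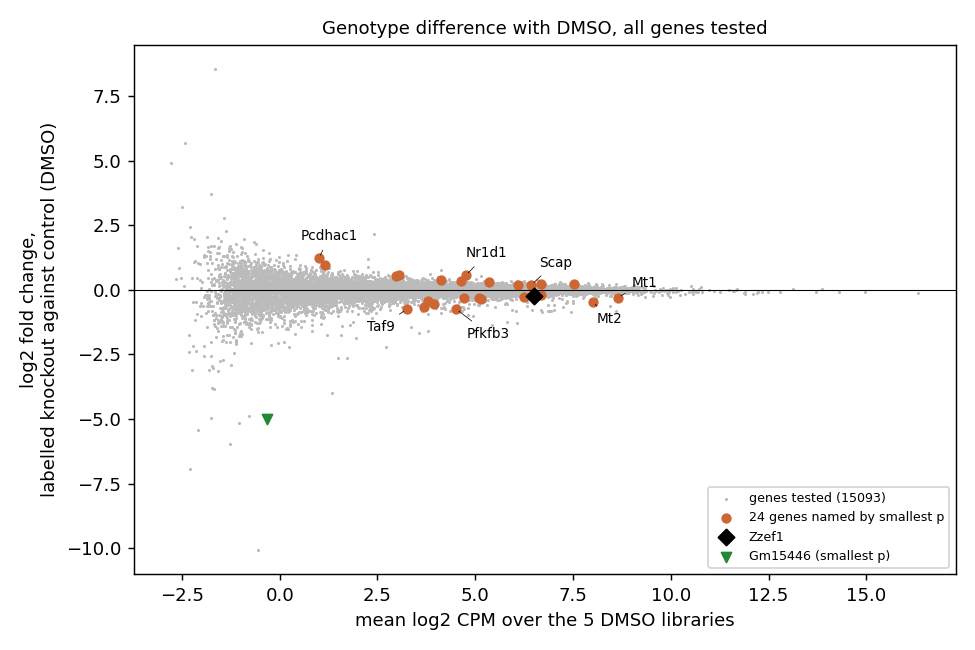
Genotype difference in DMSO for each tested gene. The x axis is the mean log2 CPM over the 5 DMSO libraries and the y axis the log2 fold change of labelled knockout against control; orange points are the 24 named genes, the black diamond is Zzef1 (-0.26), and most points lie close to 0 except among genes of low count.

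The 24 leading genes were the 12 higher and 12 lower ones of smallest p among those with established symbols and separated groups. They were picked on this contrast, so their separation is a property of the choice and their values are a description. The one of smallest p among the higher genes was Nr1d1, which encodes the circadian repressor REV-ERBα, described with the clock below. Scap, the escort protein that carries sterol-sensing SREBP from the ER to the Golgi, was at 93.2 and 94.4 CPM in labelled knockout and at 81.6, 82.3 and 82.0 CPM in control libraries. Its difference was small (0.19, SE 0.06) but both groups were tight. Sall1, a zinc-finger repressor of developmental genes, was at 10.9 and 9.83 CPM against 6.79, 6.79 and 7.32 CPM (0.57, SE 0.17). Anks4b, a scaffold of epithelial microvilli that has also been linked to ER stress in beta cells, was at 45.8 and 46.3 CPM against 41.6, 35.5 and 36.3 CPM (0.29, SE 0.08). Control library 1 lay closest to the labelled knockout group for this gene.

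The other higher genes included Rrm2, the small subunit of ribonucleotide reductase (0.94, SE 0.30, at 1.39 to 3.44 CPM), Sowahb (0.53), Zdhhc1, a palmitoyl transferase (0.33), the transcription factor Zfhx2 (0.21) and the ubiquitin ligase Rnf44 (0.21). Tada1, a subunit of the SAGA histone acetylation complex, was at 20.5 and 20.3 CPM against 16.1, 14.3 and 16.1 CPM (0.40, SE 0.11). Tada1 overlaps Pogk on the opposite strand, and the strand setting of the counts is not given in the sources used here. Pogk itself differed by 0.01. Pcdhac1, a protocadherin of the alpha cluster, had the widest difference (1.22, SE 0.37) at 1.19 to 3.85 CPM. Its exons overlap those of the other alpha protocadherins, so its count is uncertain.

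On the lower side the gene of smallest p was Mt2, a metallothionein described in its own paragraph. Taf9, a subunit of TFIID and of SAGA, was at 6.77 and 7.0 CPM in labelled knockout and at 9.96, 12.3 and 12.5 CPM in control libraries (-0.75, SE 0.18). It shares sequence on the same strand with Ak6, which differed by 0.01. Fabp4, a fatty acid carrier of adipocytes, macrophages and endothelium, was at 10.1 and 14.4 CPM against 17.6, 19.96 and 16.4 CPM (-0.55, SE 0.14). The other 6 adipocyte markers were too low to test, with 0 to 1 counts of Adipoq and Plin1 per library and none of Lep, Retn or Cfd. Cidec had 10 and 1 counts in labelled knockout libraries 1 and 2 and 0 in each control library, opposite in direction to Fabp4. Without labelled knockout library 1 the difference in Fabp4 was -0.32, and without library 2 it was -0.83. Fabp4 was also the lower gene whose azoramide comparison pointed the same way with an unadjusted p under 0.05 (-0.29). In that comparison 373 of all genes (2.47%) were higher and 381 (2.52%) lower at such a p.

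Pfkfb3 makes fructose 2,6-bisphosphate, the main activator of glycolysis, and was at 16.0 and 17.8 CPM in labelled knockout and at 36.9, 25.4 and 22.4 CPM in control libraries (-0.74, SE 0.19). Control library 1, in which the hypoxia genes were highest, also held the highest Pfkfb3, and the difference without it was -0.50. Arntl (-0.66) belongs to the clock. The rest were the transcription factors Zbtb21 (-0.35), which overlaps C2cd2 on the same strand, and Zfp160 (-0.31), the nuclear receptor coactivator Pnrc1 (-0.27), the translation cofactor Eef1e1 (-0.44), the complex I subunit Ndufa12 (-0.31), the iron-sulphur assembly factor Isca1 (-0.21) and Mt1 (-0.30). In the 6 azoramide libraries, 14 of the 24 genes had the same sign as with DMSO (58.3%), beside 50.6% of all genes tested. Those were 6 of the 12 higher and 8 of the 12 lower. Sowahb was among those that turned, at -0.42 with azoramide and separated groups (edgeR unadjusted p = 0.0141). Its interaction between genotype and treatment had an unadjusted p of 0.00055 (adjusted p = 0.999). Taf9 (0.18) and Zfp160 (0.17) also turned sign there.

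**Figure D2:**
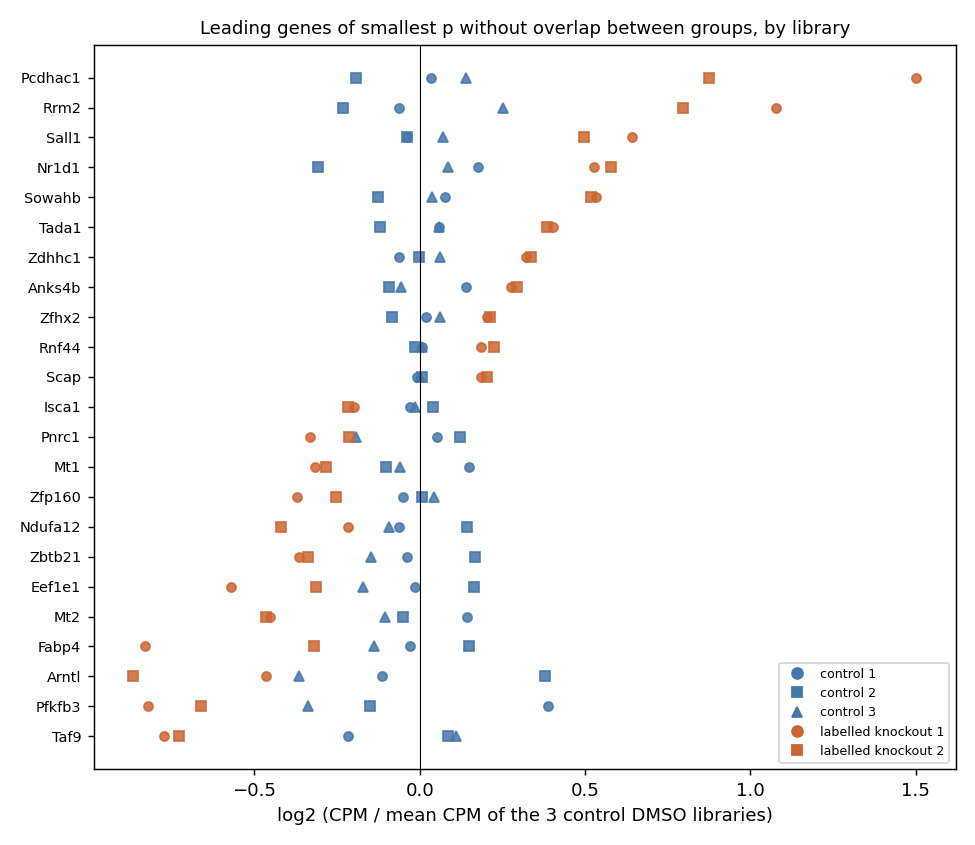
The leading genes named in the text in the 5 DMSO libraries. Each row is a gene, the x axis is log2 of CPM over the mean of the 3 control libraries, blue symbols are control and orange symbols labelled knockout libraries; the genes were chosen for separated groups, and Pcdhac1 (1.22) and Taf9 (-0.75) have the widest difference on the higher and the lower side.

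Metallothioneins are small cysteine-rich proteins that bind zinc and copper, and their genes are switched on by the zinc-sensing factor MTF1. Mt2 stood at 213 and 212 CPM in labelled knockout and at 323, 282 and 271 CPM in control libraries (log2 difference -0.46, SE 0.09, edgeR adjusted p = 0.660). Mt1 stood at 349 and 357 CPM against 482, 405 and 417 CPM (-0.30, SE 0.08, adjusted p = 0.999). For both genes every control library lay above both labelled knockout libraries, and control library 1 was the highest. Mt2 was the named gene closest to a call, passing in DESeq2 (adjusted p = 0.00451), and in edgeR when weakly expressed genes were kept (adjusted p = 0.0305). Leaving out 1 library at a time, its difference ranged from -0.51 to -0.38.

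Of the 13 genes of metallothionein and zinc control, 10 were below 0 and 3 above (median -0.05). Mtf1 was at 44.5 and 47.9 CPM in labelled knockout and at 38.1, 42.7 and 41.2 CPM in control libraries (0.19, SE 0.08), the only member above 0 with an unadjusted p under 0.05. The granule zinc transporter Slc30a8 (-0.01), the exporter Slc30a1 (-0.05) and the Golgi transporter Slc30a7 (0.00) were nearly level, and Mt3 was at 0.84 to 1.94 CPM. In the azoramide libraries both genes were far more abundant, at 667 to 846 CPM for Mt2 and 953 to 1185 CPM for Mt1, and the genotype differences were -0.13 and -0.11 with overlapping groups. The interaction for Mt2 had an unadjusted p of 0.0123 (adjusted p = 0.999), so a difference in the genotype effect between treatments was not called.

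The promoters of these neighbouring genes on chromosome 8 are shown because they are the leading lower pair. The 250 bases before each start (RefSeq, GRCm38.p6) are at chr8:94178839-94179088 for Mt1 and chr8:94172368-94172617 for Mt2, both on the plus strand. Capitals mark matches to the metal response element core, TGCACNC or TGCGCNC, searched on both strands:
Mt1: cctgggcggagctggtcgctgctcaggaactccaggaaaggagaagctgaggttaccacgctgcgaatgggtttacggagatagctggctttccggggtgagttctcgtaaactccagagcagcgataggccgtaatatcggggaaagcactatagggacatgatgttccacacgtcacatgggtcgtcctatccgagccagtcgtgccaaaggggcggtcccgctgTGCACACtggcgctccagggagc
Mt2: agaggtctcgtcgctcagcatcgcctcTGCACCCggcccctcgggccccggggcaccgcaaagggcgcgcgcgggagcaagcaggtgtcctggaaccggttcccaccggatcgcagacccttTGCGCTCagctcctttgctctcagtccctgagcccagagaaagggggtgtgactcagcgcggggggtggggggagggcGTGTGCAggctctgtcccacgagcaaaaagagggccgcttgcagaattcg
In these windows Mt1 held 1 match and Mt2 held 3. The counts depend on where the annotated start lies, and bases after it were not searched. A match was found in 7032 of 32851 windows of the same length (21.4%), and in 4 of the 10 listed zinc genes with an entry, namely Mt1, Mt2, Slc30a1 and Slc30a5. The 2 transporters differed little between genotypes (-0.05 and -0.08). A match is a description of the letters and not a binding site.

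The circadian clock is a loop in which BMAL1 (Arntl) and CLOCK drive Per, Cry and Rev-erb genes (Nr1d1, Nr1d2), whose products repress the activators, and in which DBP, TEF and HLF carry the rhythm to output genes. Of the 21 genes listed, 13 were higher and 8 lower in labelled knockout (median log2 difference 0.04), beside 49.0% of all genes above 0. At an unadjusted p under 0.05 there were 5 higher genes and 1 lower, and the groups did not overlap for 7 higher and 2 lower ones, beside 9.87% of all genes higher and 9.57% lower. The 6 genes at such a p make 28.6% of the list, beside 3.52% of all genes. Arntl, Npas2 and Clock of the activating limb were below 0, and Nr1d1, Nr1d2, the 3 Per genes, Cry2, Ciart, Dbp, Tef and Hlf were above 0, while Cry1 was below it (-0.18). None of these genes passed the adjusted threshold.

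Nr1d1 was at 33.6 and 34.8 CPM in labelled knockout and at 26.3, 18.8 and 24.7 CPM in control libraries (0.56, SE 0.13, edgeR adjusted p = 0.999). The gene overlaps Thra on the opposite strand, which differed by 0.14. Per2, a repressor of the loop, was at 81.0 and 84.6 CPM against 74.5, 60.1 and 67.7 CPM (0.30, SE 0.10). Ciart, also known as CHRONO, was at 15.2 and 20.4 CPM against 15.7, 11.2 and 12.6 CPM (0.44, SE 0.16), so 1 control library lay within the labelled knockout range. Without labelled knockout library 2 its difference was 0.21. Arntl was at 11.4 and 8.63 CPM against 14.5, 20.5 and 12.2 CPM (-0.66, SE 0.19). It was therefore lower in both labelled knockout libraries, by least against control library 3.

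Control library 2 lay at the far side from the labelled knockout libraries for many clock genes. Dbp, for instance, was at 45.7 and 46.1 CPM in labelled knockout and at 38.4, 17.4 and 39.9 CPM in control libraries (0.53, SE 0.36). Without control library 2 its difference was 0.23, and those of Nr1d1, Arntl, Per2, Tef and Nfil3 were 0.42, -0.42, 0.22, 0.19 and -0.23, against 0.56, -0.66, 0.30, 0.36 and -0.69 with it. All 6 differences were smaller without it, which follows from its place at the far side for each of these genes. Groups were separated for all of them but Nfil3, so leaving out a control library could not turn those signs. Nfil3, with overlapping groups, also kept its sign. The labels give no time of collection, and its part in the result was not tested.

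With azoramide, in 6 other libraries, Per2 was at 56.5, 68.3 and 70.9 CPM in labelled knockout and at 53.7, 53.1 and 47.2 CPM in control libraries (0.35, unadjusted p = 0.00171). Per1 (0.25) and Ciart (0.36) were also higher there with separated groups and unadjusted p of 0.00567 and 0.0242, making 3 higher and 0 lower clock genes at such a p. Nr1d1 differed by 0.24 with overlapping groups, Arntl by -0.18, and Dbp by 0.02. Averaged over both treatments, a contrast added after the data were seen, Per2 was higher by 0.32 and Nr1d1 by 0.40, each at an edgeR adjusted p of 0.754.

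**Figure D3:**
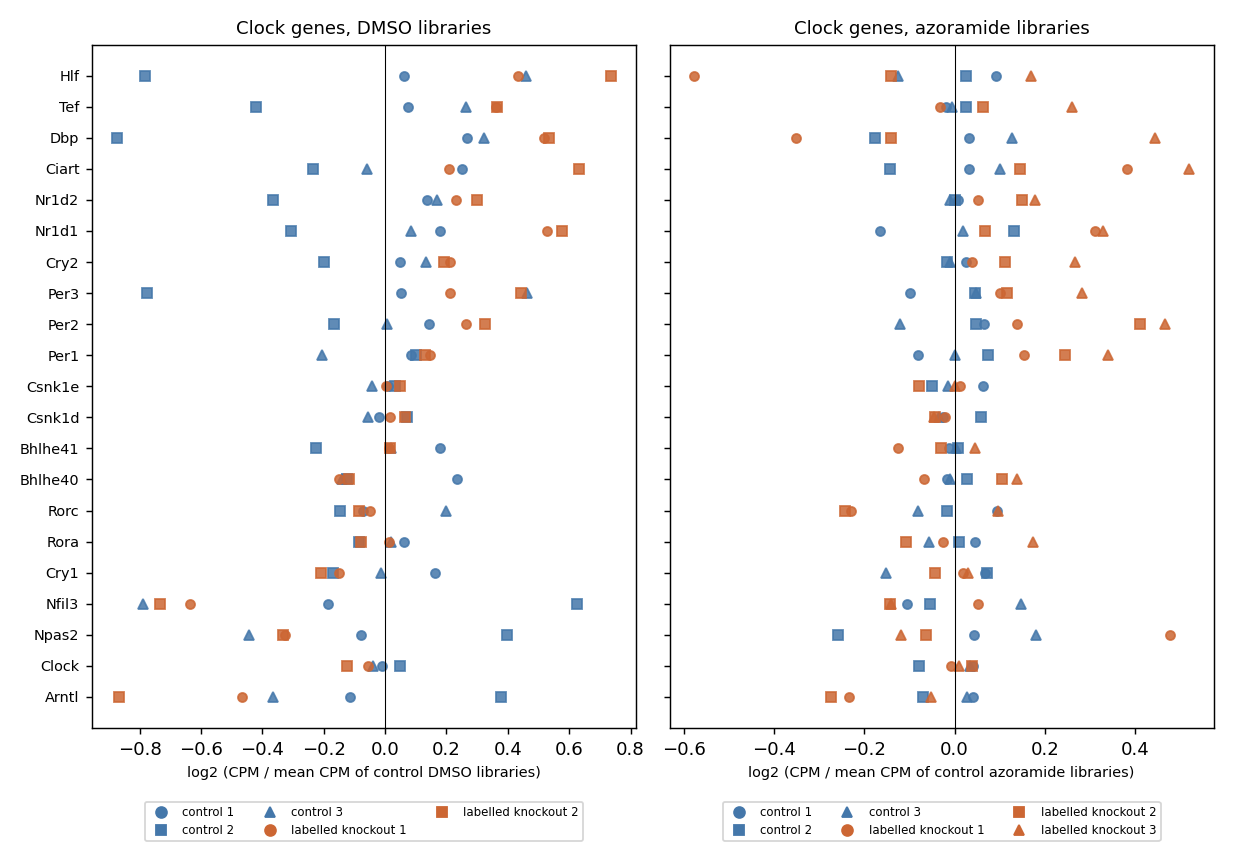
The 21 clock genes in each library, with DMSO (left) and azoramide (right). The x axis is log2 of CPM over the mean of the control libraries of that treatment, blue symbols are control and orange symbols labelled knockout; control library 2 lies far from the other DMSO control libraries for Dbp, Hlf, Per3 and Nfil3.

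The Ciart promoter is shown as an example of a clock gene that was higher in both treatments and whose window holds the E-box CACGTG bound by BMAL1 and CLOCK. Per1 and Tef also had an E-box and were above 0 in both treatments (0.14 and 0.25 for Per1, 0.36 and 0.10 for Tef). The window is chr3:95882229-95882478 on the minus strand (RefSeq, GRCm38.p6), and capitals mark the E-boxes:
Ciart: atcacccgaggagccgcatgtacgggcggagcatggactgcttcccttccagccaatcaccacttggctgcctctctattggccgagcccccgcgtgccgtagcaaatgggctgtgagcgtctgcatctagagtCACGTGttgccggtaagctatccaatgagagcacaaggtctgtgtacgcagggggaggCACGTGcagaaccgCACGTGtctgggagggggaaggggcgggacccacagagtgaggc
It held 3 E-boxes. The same letters, which read alike on both strands, were in 1978 of 32851 windows (6.02%) and in 5 of the 17 clock genes with an entry. Those 5 were Per1, Cry1, Tef, Bhlhe41 and Ciart, and their DMSO differences ran from -0.18 for Cry1 to 0.44 for Ciart. With azoramide Bhlhe41 was at -0.03 and Cry1 at 0.00. The window of Nr1d1, the higher gene of smallest p, held 0 E-boxes. Ciart was chosen with its values and letters in view.

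Genes of fatty acid and cholesterol synthesis are driven by SREBP factors, which SCAP escorts and INSIG1 retains in the ER. Of the 30 listed and tested, 27 were higher in labelled knockout and 3 lower, with a median log2 difference of 0.11 beside -0.00 over all genes. At an unadjusted p under 0.05 there were 5 higher genes and 0 lower (16.7% of the list, beside 3.52% of all genes), and 7 higher genes did not overlap, beside 9.87% of all genes. The enzyme of smallest p was Fdps, which makes farnesyl pyrophosphate, at 89.9 and 86.9 CPM in labelled knockout and at 71.2, 60.0 and 78.0 CPM in control libraries (0.34, SE 0.11). Fatty acid synthase, Fasn, was at 167 and 169 CPM against 145, 148 and 150 CPM (0.18, SE 0.07). Fdft1 (0.18), which commits the pathway to sterols, the desaturase Scd2 (0.19) and the regulator Srebf2 (0.21) also had separated groups. Without control library 2 these 3 were each at 0.11.

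Other members were closer to level. The regulator Srebf1 differed by 0.08 and the abundant Acly, which makes cytosolic acetyl-CoA, by 0.02. Control library 2 was the lowest for Fdps, Srebf2, Insig1 (103 CPM against 128 to 150 CPM elsewhere) and Hmgcs1 (78.0 CPM against 105 to 120 CPM elsewhere). Leaving out 1 library at a time, the list median ranged from 0.06, without control library 2, to 0.17. Without both control libraries 1 and 2 it was 0.03. With azoramide 13 of the 30 genes were higher and the median was -0.02.

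Glycolytic enzymes and hypoxia-induced genes formed a group with lower values in labelled knockout. Of 31 tested, 29 were below 0 and 2 above, with a median log2 difference of -0.46. At an unadjusted p under 0.05 there were 8 lower genes and 0 higher (25.8% of the list, beside 3.52% of all genes), and 14 lower genes had separated groups, beside 9.57% of all genes. The group was uneven among control libraries, with a mean level of 6.23 log2 CPM in control library 1 against 5.53 and 5.36 in the other controls and 5.30 and 5.10 in labelled knockout. Slc16a3, the lactate exporter MCT4, was at 2.05 and 1.05 CPM in labelled knockout and at 9.24, 4.16 and 2.11 CPM in control libraries (-1.73, SE 0.51). The collagen prolyl hydroxylase P4ha2 was at 18.1 and 16.1 CPM against 36.5, 29.5 and 19.1 CPM (-0.73, SE 0.22).

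The glucose transporter Slc2a1 was at 23.3 and 18.9 CPM against 62.3, 43.0 and 22.6 CPM (-1.01, SE 0.37), so control library 3 lay between the labelled knockout values. Abundant glycolytic enzymes differed less, with Aldoa at -0.26, Gpi1 at -0.30 and Pkm at -0.24. Vegfa (0.07) and Ndrg1 (0.02), both also hypoxia targets, were above 0. Without control library 1 the list median was -0.13, without control libraries 1 and 2 it was -0.12, and with azoramide it was 0.04. Without control library 1, Slc16a3 was at -1.02, Slc2a1 at -0.64, P4ha2 at -0.51, Aldoa at -0.11, Gpi1 at -0.13 and Pkm at -0.10. Without control libraries 1 and 2, Slc16a3 was at -0.44, P4ha2 at -0.17 and Slc2a1 at -0.10. Without control library 3, in contrast, the edgeR adjusted p was 0.0118 for P4ha2 (-0.95) and 0.0288 for Slc2a1 (-1.32). Genotype and the level of these genes in control library 1 cannot be told apart with 3 control libraries.

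**Figure D4:**
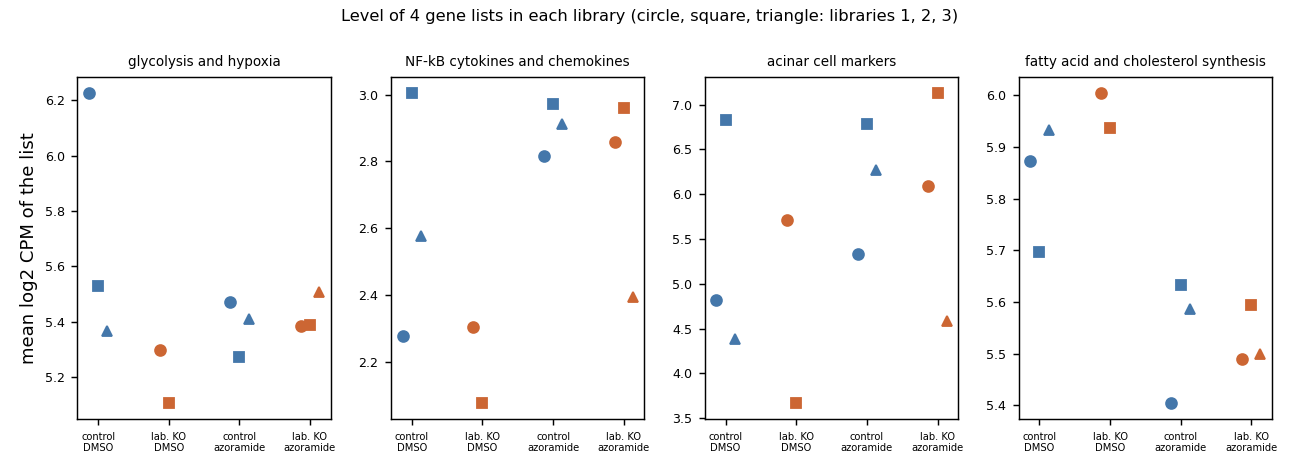
Mean log2 CPM of 4 gene lists in all 11 libraries. Blue symbols are control and orange symbols labelled knockout, with circle, square and triangle for libraries 1, 2 and 3; control DMSO library 1 is at 6.23 for glycolysis and hypoxia, and control DMSO library 2 at 6.83 for acinar markers and 3.01 for NF-kB genes.

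NF-kB cytokines and chemokines are the inflammatory targets that stressed islets and their macrophages produce. Of 27 tested, 24 were below 0 and 3 above, with a median log2 difference of -0.43, and at an unadjusted p under 0.05 there were 6 lower genes and 0 higher (22.2% of the list, beside 3.52% of all genes). Csf3, the granulocyte growth factor G-CSF, was at 0.46 and 0.34 CPM in labelled knockout and at 0.95, 3.02 and 0.94 CPM in control libraries (-2.04, SE 0.54). The apoptosis inhibitor Birc3 was at 19.7 and 17.3 CPM against 21.3, 31.1 and 22.2 CPM (-0.43, SE 0.15). The feedback inhibitor Tnfaip3 (-0.61) and the subunit Nfkb2 (-0.37) also had separated groups. Control library 2 was the highest for each of these 4 genes, and without it Csf3 was at -1.24, Birc3 at -0.24, Tnfaip3 at -0.41 and Nfkb2 at -0.20. The inducible nitric oxide synthase Nos2 was more even, at 1.28 and 1.29 CPM against 2.67, 2.72 and 2.39 CPM (-1.01, SE 0.51). Nfkb1 (-0.09) and Rela (0.03), the main subunits, were nearly level. Without control library 2 the list median was -0.14, and with azoramide it was -0.02.

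Interferon-stimulated genes are the antiviral program that cells switch on through interferon receptors. Of 28 tested, 26 were below 0 in labelled knockout (median log2 difference -0.22). Groups were separated for 2 lower and 0 higher genes, beside 9.57% and 9.87% of all genes. Only 1 gene had an unadjusted p under 0.05 (3.57% of the list, beside 3.52% of all genes). That gene was Isg15, the ubiquitin-like modifier, at 1.59 and 1.53 CPM against 2.62, 2.97 and 2.55 CPM (-0.80, SE 0.34). Ifit1 was at 23.0 and 15.3 CPM against 19.0, 31.2 and 35.6 CPM (-0.58, SE 0.37), with control library 1 between the labelled knockout values. The list median ranged from -0.45, without labelled knockout library 1, to -0.05, without labelled knockout library 2. With azoramide it was -0.20, with 4 of 28 genes above 0 and 1 lower at an unadjusted p under 0.05.

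Acinar enzymes come from exocrine tissue that adheres to isolated islets. All 22 tested acinar markers were below 0 (median log2 difference -0.79), but none had separated groups. Ctrb1, chymotrypsinogen, was at 592 and 140 CPM in labelled knockout and at 355, 1333 and 233 CPM in control libraries. Cpa1, a carboxypeptidase, was at 197 and 45.1 CPM against 103, 458 and 68.8 CPM. The summed level of the list ran from 618 to 2608 CPM in labelled knockout and from 996 to 5992 CPM in control libraries. The labelled knockout libraries lay inside or below the control range. The median was 0.39 without control library 2, -2.20 without labelled knockout library 1 and -0.10 without labelled knockout library 2.

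Islet hormones were at similar levels in both genotypes. Ins2 was at 77406 and 79159 CPM in labelled knockout and at 85108, 85293 and 84295 CPM in control libraries (log2 difference -0.12, SE 0.14, 95% interval -0.44 to 0.20). Ins1 was at 30923 and 31567 CPM against 31729, 34499 and 32116 CPM (-0.07, SE 0.10). Both insulin genes were below every control library by margins that were small beside their error. Gcg, which encodes glucagon, differed by 0.01 (SE 0.08), Sst, somatostatin, by 0.10 (SE 0.15), Ppy, pancreatic polypeptide, by -0.08 (SE 0.19), and Iapp, amylin, by -0.07 (SE 0.07).

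Minor hormones gave the lower values of the group. Ucn3, urocortin 3, a peptide of mature beta cells that stimulates somatostatin release, was at 186 and 182 CPM in labelled knockout and at 227, 191 and 212 CPM in control libraries (-0.19, SE 0.08). With azoramide it was at 267, 272 and 253 CPM against 286, 310 and 327 CPM (-0.22, SE 0.07, edgeR adjusted p = 0.958). Ghrl, which encodes ghrelin and marks the rare epsilon cell, was at 1.18 and 0.91 CPM against 3.06, 1.39 and 2.66 CPM (-1.17, SE 0.37). With azoramide its difference was 0.23.

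Beta cell identity was compared over 25 genes, of which 14 were above 0 and 11 below (median log2 difference 0.01). Ucn3 was the member at an unadjusted p under 0.05. Pdx1, the master factor of the beta cell, was at 103 and 97.5 CPM in labelled knockout and at 98.7, 86.1 and 104 CPM in control libraries (0.06, SE 0.08). Mafa, the factor of mature insulin transcription, differed by -0.15 (SE 0.20), Nkx6-1 by 0.18 (SE 0.10), and Neurod1 by 0.00 (SE 0.07). The glucose transporter Slc2a2 was at 164 and 158 CPM against 189, 102 and 219 CPM (-0.08, SE 0.30), a difference far inside the spread of the controls. The channel subunits Kcnj11 (0.01) and Abcc8 (0.14) also overlapped. Genes that mature beta cells keep low were likewise divided, with 8 of 17 above 0 (median -0.01), and Aldh1a3, a marker of dedifferentiated beta cells, was at 16.7 and 15.3 CPM against 18.5, 4.36 and 24.2 CPM.

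Granule and exocytosis genes were 11 above 0 and 15 below (median -0.01). Resp18, a granule matrix protein, was at 600 and 523 CPM against 634, 631 and 614 CPM (-0.16, SE 0.07), the member with an unadjusted p under 0.05. Without labelled knockout library 2 its difference was -0.061. Chga differed by 0.02, Cpe by -0.03 and Pcsk1 by -0.13. Lactogen signalling, which drives beta cell growth in pregnancy, was 8 above and 7 below (median 0.01), with Prlr at -0.00 (SE 0.09). Tph1, the serotonin-synthesis gene of that pathway, was near the floor at 0.10 to 0.22 CPM. Proliferation genes were 9 above and 10 below (median -0.02), with Rrm2 the member at an unadjusted p under 0.05.

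Kruppel-like factors were listed because ZZEF1 has been tied to KLF6 and KLF9. Of 16 family genes, 8 were above 0 and 8 below, with a median of 0.00 and none at an unadjusted p under 0.05. Klf6 was at 25.6 and 25.0 CPM in labelled knockout and at 25.4, 26.1 and 25.7 CPM in control libraries (-0.02, SE 0.10, 95% interval -0.24 to 0.19). Klf9 was at 107 and 111 CPM against 108, 93.5 and 104 CPM (0.10, SE 0.07, 95% interval -0.05 to 0.25). These are transcript levels, and the activity of the factors was not measured.

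ER stress genes were examined because azoramide, the drug of the study, is known as a modulator of protein folding in the ER. Among 31 ER folding and degradation genes, 9 were above 0 and 22 below (median -0.04), with none at an unadjusted p under 0.05. Hspa5, the chaperone BiP, was at 1438 and 1459 CPM in labelled knockout and at 1586, 1965 and 1251 CPM in control libraries (-0.14, SE 0.14). Among 29 genes of the integrated stress response, 5 were above 0 and 24 below (median -0.08), again with none at an unadjusted p under 0.05. Atf4 was at 429 and 451 CPM against 493, 568 and 389 CPM (-0.14, SE 0.12), and Ddit3, which encodes CHOP, at 36.3 and 41.0 CPM against 47.9, 49.8 and 34.0 CPM (-0.18, SE 0.18).

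For each of these stress genes control library 2 was the highest and control library 3 the lowest of the 5, so the control range enclosed both labelled knockout libraries. Without control library 2 the stress response median was 0.07, and without control libraries 1 and 2 it was 0.20, with Hspa5 at 0.21 and Atf4 at 0.18. Immediate early genes moved the same way with the control libraries, with a median of -0.13 that became 0.04 without control library 2. Genes of ER calcium handling were 10 above and 6 below (median 0.06), with Atp2a2, the housekeeping pump SERCA2, at 0.07 (SE 0.06) and the store sensor Stim1 at 0.10 (SE 0.08).

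Genes of protein synthesis and respiration were slightly lower in labelled knockout. Of 80 cytosolic ribosomal protein genes, 75 were below 0 (median log2 difference -0.08), 6 had an unadjusted p under 0.05 (7.5% of the list, beside 3.52% of all genes), and 31 had separated groups, all lower, beside 9.57% of all genes lower with separated groups. The median was -0.041 without control library 2 and -0.012 without control libraries 1 and 2. With azoramide the median was -0.11, with 2 of the 80 genes above 0. There 31 genes were lower at an unadjusted p under 0.05, beside 2.52% of all genes. Rpl14 was at 235 and 246 CPM in labelled knockout and at 273, 278 and 257 CPM in control libraries (-0.16, SE 0.06). Of 76 nuclear-encoded respiratory chain genes, 67 were below 0 (median -0.10), 8 were lower at an unadjusted p under 0.05 (10.5% of the list, beside 1.93% of all genes) and 23 were lower with separated groups (beside 9.57%). That median was -0.051 without control library 2. With azoramide it was -0.06, with 2 genes lower at an unadjusted p under 0.05. Cox5a, a subunit of complex IV, was at 26.1 and 27.3 CPM against 32.7, 33.8 and 31.3 CPM (-0.29, SE 0.09), and Ndufa12, of complex I, at 32.2 and 27.9 CPM against 35.8, 41.2 and 35.1 CPM (-0.31, SE 0.09).

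All 13 protein-coding genes of the mitochondrial genome were below 0 (median -0.11), and 8 had separated groups, beside 9.57% of all genes lower in that way. Without control libraries 1 and 2 the median was -0.055, and with azoramide it was -0.09. The one at an unadjusted p under 0.05 was mt-Atp8, an ATP synthase subunit, at 891 and 892 CPM against 1013, 1002 and 1082 CPM (-0.21, SE 0.08), which overlaps mt-Atp6 on the same strand. Most genes in these 3 lists have short transcripts, and log2 differences followed transcript length across all genes. The median was -0.04 in the fifth of genes with the shortest exonic length (168 to 2306 bases) and 0.01 in the longest, and the azoramide comparison gave -0.05 and 0.03. After centring within 20 bins of length, an alternative added after the data were seen, the medians were -0.05 for ribosomal proteins, -0.05 for the respiratory chain and -0.04 for mitochondrial genes. The part of length in the uncentred values was not tested further.

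Markers of other islet cells gave few differences. Endothelial markers were 9 above 0 and 8 below (median 0.02), with a summed level of 472 and 486 CPM in labelled knockout and of 470 to 476 CPM in control libraries, and Robo4, an endothelial guidance receptor, was at 18.5 and 17.5 CPM against 14.9, 12.7 and 16.8 CPM (0.28, SE 0.13). Alpha cell markers were 4 above and 7 below (median -0.02), with Gc, the vitamin D binding protein of alpha cells, at 168 and 179 CPM against 186, 230 and 191 CPM (-0.22, SE 0.09). Without control library 2, Gc was at -0.12 and Robo4 at 0.18. Macrophage markers were 12 above and 6 below (median 0.08) with summed levels of 105 and 113 CPM against 92.1 to 122 CPM. With azoramide all 18 macrophage markers were above 0 (median 0.54). Of them 3 had an unadjusted p under 0.05, beside 2.47% of all genes higher. Their summed levels there were 247, 177 and 119 CPM in labelled knockout libraries 1 to 3 and 121, 132 and 156 CPM in control libraries. Labelled knockout library 3 was thus the lowest of the 6. Of 11 lymphocyte markers 2 were tested. Cd3d, Cd8a and Nkg7 had 0 counts in every DMSO library, while Cd4 had 1 to 10 and Cd79b 1 to 7, both highest in labelled knockout library 2. The Y-linked gene Ddx3y was read at 93.1 to 107 CPM and Xist at 0.45 to 1.11 CPM, so the pools of both genotypes were alike in this respect.

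**Figure D5:**
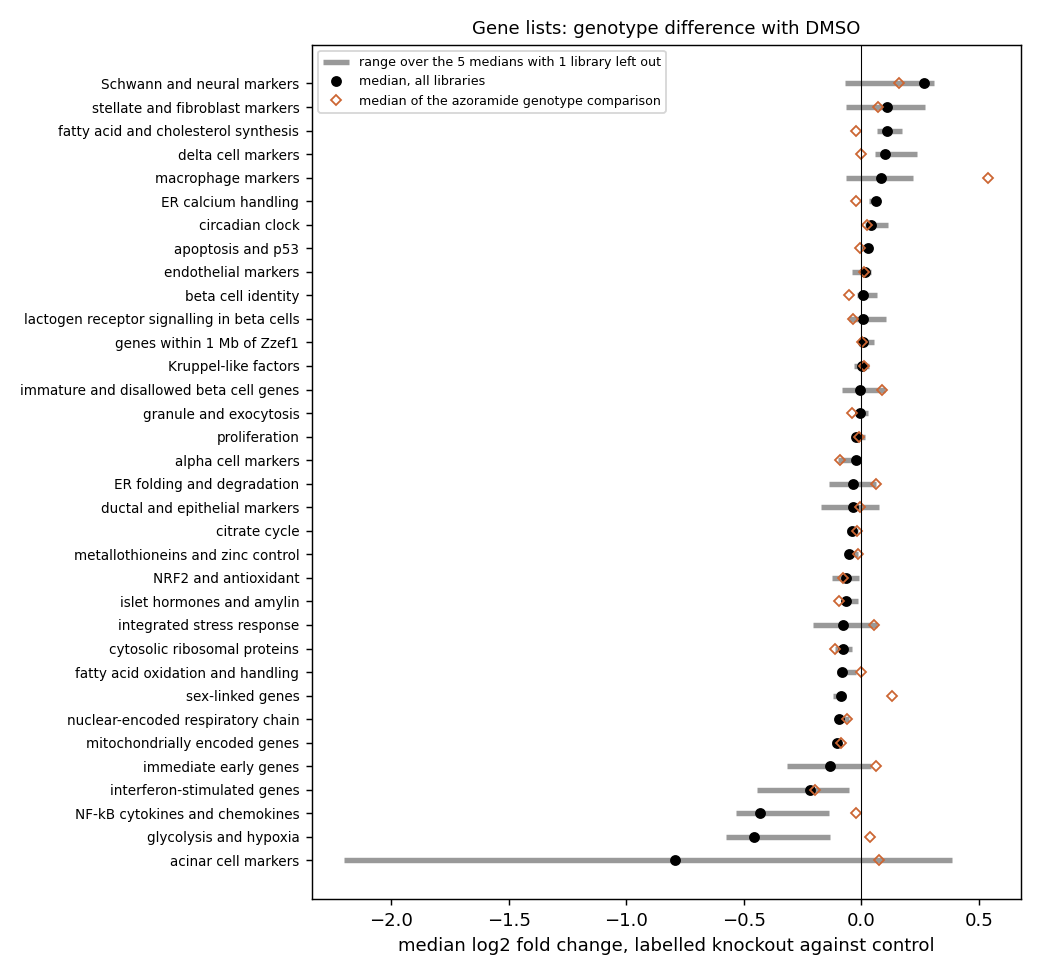
Median log2 difference of each gene list with at least 5 tested genes, labelled knockout against control. Black points are the DMSO medians, grey bars the range of the 5 medians with 1 library left out, and orange diamonds the azoramide comparison medians. The widest bar is that of acinar markers (-2.20 to 0.39). The fatty acid and cholesterol synthesis bar (0.06 to 0.17) lies above 0. So do those of delta cell markers, ER calcium handling, the circadian clock and genes within 1 Mb of Zzef1. Other bars, such as glycolysis and hypoxia (-0.58 to -0.13), lie below 0.

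Fatty acid handling and antioxidant genes completed the metabolic lists. Plin2, a coat protein of lipid droplets, was at 9.39 and 9.87 CPM in labelled knockout and at 16.5, 10.9 and 11.7 CPM in control libraries (-0.43, SE 0.17, and -0.23 without control library 1), in a list with 8 of 22 members above 0 (median -0.08). Hmox1, heme oxygenase, was at 153 and 144 CPM against 236, 254 and 151 CPM (-0.53, SE 0.22). Control library 3 thus lay among the labelled knockout libraries, and without control libraries 1 and 2 the difference in Hmox1 was -0.03. The immediate early genes Ier3 (-0.40) and Maff (-0.39) had separated groups, though control library 3, at 27.6 CPM for Ier3 and 17.7 CPM for Maff, lay close to the higher labelled knockout library (27.2 and 16.7 CPM). Without control library 2, Ier3 was at -0.26 and Maff at -0.31. Without control libraries 1 and 2, Ier3 was at -0.02 and Maff at -0.11. With azoramide they were at 0.06 and 0.30, with overlapping groups.

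The smallest p of all genes belonged to Gm15446, a predicted gene on chromosome 5 that the naming rule leaves out. It had 3 and 0 counts in labelled knockout and 29, 100 and 21 counts in control libraries (edgeR adjusted p = 0.623). In the azoramide libraries it had 3 to 9 counts in both genotypes. Gm14440 and Gm14434, a pair of predicted genes on chromosome 2, were each at 0 counts in some libraries and not in others. Gm14440 had 134, 0 and 261 counts in control libraries and 0 in both labelled knockout libraries, and passed with DESeq2 (adjusted p = 0.00451). Gm14434 had 91 and 9 counts in labelled knockout and 0 in all 3 control libraries. Predicted genes of this kind can share sequence with near-identical copies, so the assignment of their reads is uncertain.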

How the data were processed

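RNA of pooled mouse islets was sequenced on the DNBSEQ-T7 platform, per the labels. The deposited table holds whole-number counts for 32285 genes, 1 column per library, which the authors left unnormalized. STAR 2.7.2a, the build mm10 and DESeq2 (with no role) are named in the submitters' processing notes. How reads were assigned to genes, with which annotation and strand rule, is not given in the sources used here.

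Counts were fitted in R 4.3.3 with edgeR 4.0.16 (TMM scaling, filter on low counts by group, robust quasi-likelihood test). All 11 libraries entered 1 fit of 4 groups, so the labelled knockout group of 2 shares the spread of all. P-values were adjusted by Benjamini-Hochberg across the 15093 genes tested, at a threshold of 0.05. Levels are CPM after TMM scaling, and differences are log2 fold changes with standard errors (SE). The fit was tested on simulated data. Coordinates and exonic lengths came from GENCODE M21 (GRCm38, matched for 15089 tested genes) and are 1-based. Promoters came from RefSeq. Counting error was small at this depth except for weakly expressed genes.

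Genes were named by rule. The rule took Zzef1, the 12 higher and 12 lower genes of smallest p (established symbols, separated groups, mean log2 CPM from 1 up), up to 2 members per list at an unadjusted p under 0.05, and 17 genes of islet function, ER stress and Kruppel-like factors whatever their result. Other list members named in the text were chosen with their values in view. Comparison, lists and rule were chosen with earlier results of these data known. Alternatives were the DESeq2 1.42.0 test and size factors, plain library totals, no filter, only the groups compared, a replicate block and leaving out libraries. Some genes that met the rule are not reported here.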

Additional observations from a re-analysis of the deposited data

How the results depend on the processing

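With no gene called for genotype in DMSO, calls came and went with the setting. The count was 2 without the filter on low counts, 3 with DESeq2, 0 to 3 when 1 library was left out (3 without control library 3, 1 without control library 2) and 2 without both control libraries 1 and 2, an alternative added after the data were seen. Genes at an unadjusted p under 0.05 numbered 313 to 1277 with 1 library left out, and genes without overlap 2919 to 7006, since fewer libraries overlap less often. For the azoramide genotype comparison the count of calls was 2 with DESeq2, 1 without control DMSO libraries 1 and 2, and 0 to 3 with 1 library left out. For the interaction it was 2 and 0 to 1, and for the average of both genotype comparisons 1 with DESeq2, 5 and 0 to 1. Deviations of same-numbered libraries correlated at -0.144 to 0.166, and those of differently numbered ones at -0.195 to 0.247. With 2 or 3 libraries per group, these values cannot decide whether replicate numbers pair the libraries. A replicate block gave 1 call and 914 genes at an unadjusted p under 0.05 with DMSO, and 1 call for the average; under the block Gcg was -0.031 and Slc2a2 0.044. Without control libraries 1 and 2 the sign turned for Hspa5 (0.21), Ddit3 (0.19), Atf4 (0.18), Xbp1 (0.073), Pdx1 (-0.056), Atp2a3 (-0.050) and Tph1 (-0.55), and with plain library totals for Klf6 (0.0054). With 1 library left out Gcg ran from -0.083 to 0.10, Ppy from -0.27 to 0.084, Pdx1 from -0.017 to 0.12, Slc2a2 from -0.34 to 0.15, Hspa5 from -0.29 to 0.030 and Tph1 from -0.55 to 0.50. Of 1109 values of the 62 named genes over 18 settings, 1087 kept sign and side of the threshold, and 19 changed sign in 11 genes. The other 3 became called (Mt2 by DESeq2 and without the filter, P4ha2 without control library 3). Most of these genes were named for a small p or separated groups in this same contrast. Some settings left out only an azoramide library, which hardly enters it. These counts therefore do not measure how stable the differences are. Where no value is given above, the cause was not tested. Genes under about 1 CPM, such as Tph1, are limited by depth.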
